A study of Mus musculus with 16 samples.

Results

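The kinesin and dynein motor genes were followed in RNA recovered with the transcription factor Sox2 from mouse embryonic stem cells. They were chosen by name, as the protein-coding genes whose symbol is Kif followed by a digit or starts with Dync, Dynl or Dnah. This rule gave 70 genes of 53379 in the count table, of which 21865 are protein-coding. There were 39 Kif genes, 7 Dync genes, 9 Dynl genes and 15 Dnah genes. Another 5 genes with such symbols are pseudogenes or antisense transcripts and were left out. The rule uses symbols only, so it also takes in Kif1bp, which encodes a protein that binds kinesins and is not itself a motor.

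Male stem cells derived from blastocysts were grown with LIF at 1000 U/mL, the MEK inhibitor PD0325901 at 1 uM and the GSK3 inhibitor CHIR99021 at 3 uM, which all 4 groups share. Cells were crosslinked either with UV light, which joins RNA to proteins in direct contact with it (UV-RIP), or with formaldehyde, which also joins them through other proteins (fRIP). From each lysate RNA was sequenced before the immunoprecipitation (input) and after it with an antibody to Sox2 (IP). Each crosslinker had 4 IP and 4 input libraries, numbered 3 to 6, and the IP and the input of a number come from the same lysate. No library from a control antibody was used here, so IP against input holds both what Sox2 carried and what the beads and the antibody carried. Per the study, these replicates were grown on separate culture plates, all of 1 cell line.

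Kinesins and dyneins are motor proteins that walk along microtubules, most kinesins toward the growing plus ends and dyneins toward the minus ends. In dividing cells, such as cultured stem cells, mitotic kinesins build and shorten the spindle, align chromosomes and organise the cleavage of the cell, whereas transport kinesins and cytoplasmic dynein carry vesicles, organelles and RNA. Axonemal dyneins, the Dnah genes, drive the beating of cilia and sperm tails and are best known from cells with motile cilia.

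Libraries held 12456298 to 21211537 counts of unique molecular identifiers (UMIs, which mark single RNA molecules), and the 70 genes together took 0.3513% to 0.4829% of them. In UV-RIP that share was 0.3513% to 0.3801% in IP and 0.3788% to 0.3848% in input, and it was lower in the IP than in the input of the same lysate in 4 of 4 pairs. In fRIP it was 0.455% to 0.4829% in IP and 0.4559% to 0.4715% in input, and it was higher in IP in 3 of 4 pairs. A single noncoding gene, Gm26917, took 18.354% to 22.339% of the UMIs of the UV-RIP IP libraries and 12.032% to 12.294% of their inputs, which lowers the share left to every other gene in UV-RIP IP. It took 5.441% to 12.426% in fRIP IP and 5.456% to 8.494% in fRIP input. Markers of pluripotent cells summed to between 1867 and 4178 CPM (UMIs of a gene scaled to the library's total) in every library, although Sox2 itself is listed at 0 in all 16. Markers of fibroblast feeders summed to at most 3.302 CPM and those of primitive endoderm to at most 12.558 CPM.

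Of the 70 genes, 66 had at least 3 UMIs in some library and were tested. The others were Dynlrb2, Dynlt1b, Kif2b and Kif12, which had at most 1 UMI in any library. A further 5 genes (Dnah11, Dnah3, Dnah6, Dnah9 and Kif19a) were tested on a mean below 10 UMIs. In the input libraries, per kb of gene body and with introns included, the most abundant were the light chain gene Dynll1 at 10.2 ± 0.98 CPM per kb (SD, n = 4) in UV input and the cytokinesis kinesin gene Kif20a at 20.8 ± 3.79 in fRIP input. In fRIP input Dynll1 followed at 19.8 ± 6.96, within the spread of Kif20a. The dynein heavy chain gene Dync1h1 came next in both inputs, at 13.1 ± 0.31 in fRIP input and 8.40 ± 0.16 in UV input, where Kif20a at 8.62 ± 0.46 lay within the spread. The mitotic kinesins Kif18b, Kif22, Kif11, Kif2c, Kif20b, Kif23 and Kif15 and the transport kinesin Kif5b all ranked among the first 12 in both inputs. At the other end, 10 of the 15 axonemal heavy chain genes had under 0.05 CPM per kb in both inputs.

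The question of the design is which RNAs were more or less abundant in IP than in the input of the same lysate. The test was edgeR's quasi-likelihood test over 22936 genes blocked on the lysate and scaled to each library's total UMIs, and genes were called enriched or depleted at a fold change above 1.5 with a Benjamini-Hochberg adjusted p below 0.05. Fold changes below are IP over input on the log2 scale, ± the standard error over 4 pairs.

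In UV-RIP no motor gene was enriched, against 0.68% of all genes tested. No member passed this fold upward at an unadjusted p below 0.05 either, against 226 of all 22936 genes. DESeq2 on the same library sizes also called 0, against 0.34% of all genes. In the other direction 4 were depleted (6.06% of 66), against 5.53% of all genes: the light chain genes Dynll1 and Dynlrb1, the axonemal gene Dnah12 and the ciliary kinesin gene Kif27. Without regard to the size of the change, 6 members were higher in IP (9.09%, against 6.6% of all genes) and 27 were lower (40.9%, against 29%). Every IP library lay above every input library for 5 members (4.93% of all genes) and below every input library for 25 (25% of all genes). The median fold change was -0.20 over the members and -0.17 over all genes. TMM scaling moved the median over all genes to 0.005 and that of the members to -0.015, with 14 members higher and 13 lower (16.2% and 14.8% of all genes in that fit), so the balance between higher and lower in UV-RIP moved with the scaling. The split of calls over all genes moved with it, from 11.0% enriched among those called to 54.3%.

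In fRIP 5 members were enriched (7.58% of 66, against 8.8% of all genes): Kif13a, Kif17, Kif26b, Kif6 and Dnah17. Another 6 were depleted (9.09%, against 10.7%): Dynll1, Dynlrb1, Dynlt1a, Dynlt3, Kif11 and Kif20b. At any size of change 17 members were higher (25.8%, against 17.6%) and 19 lower (28.8%, against 21.9%). Every IP library lay above every input library for 13 members (15.3% of all genes) and below for 18 (19.2% of all genes). The median fold change was 0.11 over the members and -0.03 over all genes. In both crosslinkers 14 members were lower at the adjusted p and 6 were higher, against 15.3% and 5.24% of all genes. The shares called at the fold threshold were near the background, and the members are described by role.

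**Figure D1:**
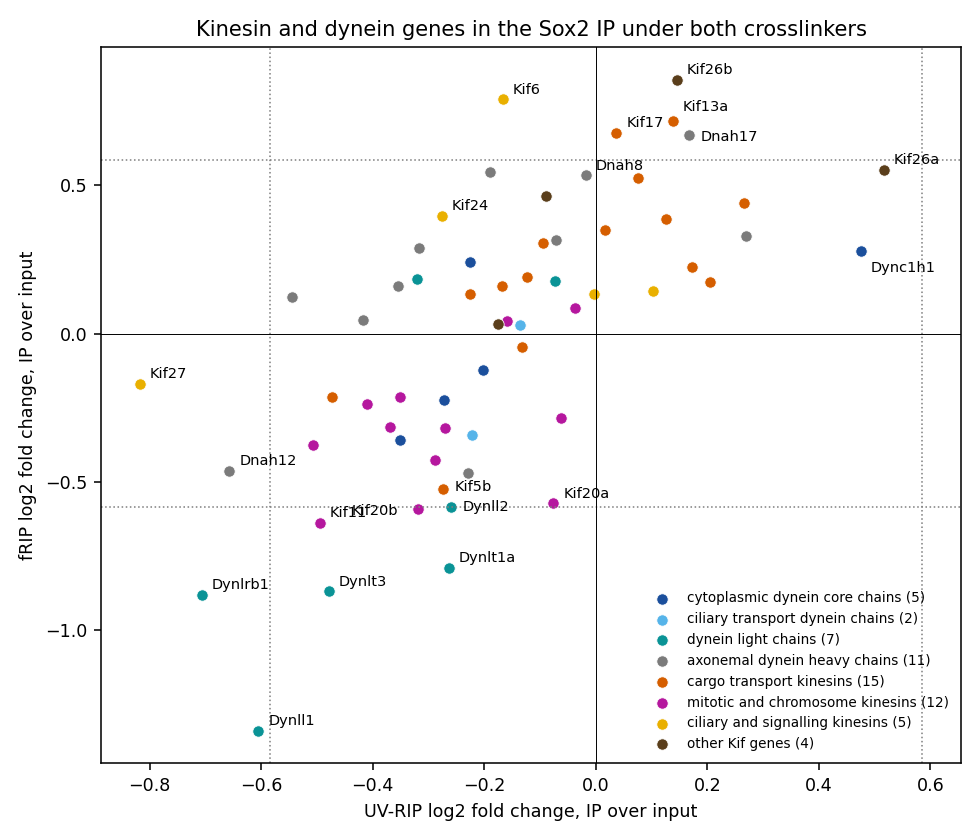
Log2 fold change of IP over input in UV-RIP (horizontal) and in fRIP (vertical) for the 61 members with a mean of 10 or more UMIs, coloured by role, with dotted lines at a fold of 1.5. Dynein light chains and mitotic kinesins lie mostly at the lower left, with Dynll1 lowest in fRIP, while Dync1h1 and Kif26a lie furthest to the right.

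Cytoplasmic dynein is built on a large heavy chain with the motor, encoded by Dync1h1 (chr12:110601452-110666945, plus strand; coordinates here are on GRCm38 from GENCODE vM21). Dync1h1 held 14.02% to 24.27% of all member UMIs in a library. In UV input it stood at 561, 553, 549 and 537 CPM in replicates 3 to 6, and in UV IP at 828, 720.1, 726 and 787 CPM. In fRIP input it had 852, 848, 886 and 839 CPM, and in fRIP IP 1001, 1058, 1105 and 998 CPM. Each IP library was above every input library in both crosslinkers. Dync1h1 rose by 0.47 ± 0.04 in UV-RIP (edgeR adjusted p = 3.56e-36) and by 0.28 ± 0.07 in fRIP (edgeR adjusted p = 0.00202). Under TMM scaling, and with the library size taken without Gm26917 and Gm42418, it passed the fold of 1.5 in UV-RIP, at 0.66 and 0.63. The fRIP rise of Dync1h1 did not pass once the trend on gene length across all genes was removed, at 0.12 with an adjusted p of 0.221.

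Of the smaller chains of the same complex, Dync1i2 and Dync1li1 were lower in both crosslinkers and Dync1li2 in UV-RIP. Dync1i2, an intermediate chain that links the motor to its cargo adaptor dynactin, had 57.9 to 69.7 CPM in UV input and 47.8 to 54.1 in UV IP, and 74.7 to 87.4 CPM in fRIP input and 56.01 to 66.1 in fRIP IP, with no overlap in either. It fell by 0.35 ± 0.05 and by 0.36 ± 0.08 (edgeR adjusted p = 4.38e-12 and 0.000561). The light intermediate chain gene Dync1li1 fell by 0.27 ± 0.05 in UV-RIP and by 0.22 ± 0.08 in fRIP. Its relative Dync1li2 fell by 0.20 ± 0.05 in UV-RIP, and in fRIP its fold change was -0.12 ± 0.08 (edgeR adjusted p = 0.255). Dync1i1, the other intermediate chain gene, passed in neither, at -0.23 ± 0.14 in UV-RIP and 0.24 ± 0.16 in fRIP (edgeR adjusted p = 0.213 and 0.278). Of the 5 core chain genes 1 was higher and 3 lower in UV-RIP (6.6% and 29% of all genes), and 1 was higher and 2 lower in fRIP (17.6% and 21.9% of all genes). Under TMM scaling only Dync1i2 remained lower in UV-RIP, and with the trend on GC content removed none did. In fRIP Dync1i2 did not pass with that trend removed, at -0.15, and Dync1li1 did not pass without the replicate block or without replicate 3, 5 or 6, at adjusted p of 0.0555 to 0.147.

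Dync2h1, the heavy chain of the dynein that carries cargo back from the tip of cilia, had 98.4 to 110.9 CPM in UV input and 86.4 to 96.9 in UV IP. It fell by 0.14 ± 0.04 in UV-RIP (edgeR adjusted p = 0.00652), a change of the size of the shift over all genes, and under TMM scaling its value was 0.045. With the trend on GC content removed it passed as higher, at 0.17 (edgeR adjusted p = 0.00107). Nor did its fall pass under DESeq2 on total UMIs (adjusted p = 0.0867) or without replicate 4, at -0.06 (edgeR adjusted p = 0.37). In fRIP its fold change was 0.03 ± 0.08. Its light intermediate chain Dync2li1 fell by 0.34 ± 0.11 in fRIP (edgeR adjusted p = 0.0185). This did not pass under DESeq2 with either scaling, with the trend on GC content removed or without replicate 5 or 6, at adjusted p of 0.0507 to 0.173. In UV-RIP its value was -0.22 ± 0.11.

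The light chains, small proteins that dimerise at the base of the dynein complex and also bind many other proteins, gave the 3 lowest fold changes among the members in fRIP, those of Dynll1, Dynlrb1 and Dynlt3. The sequences of the pair Dynll1 and Dynll2 and of the Dynlt1 copies are shown because they decide how far reads can be told apart: reads that map to more than 1 place were discarded before counting. Dynll1 and Dynll2 differ at 51 of 270 coding bases (81.1% identity). Other genes also matter: of the coding stretches as long as a read, 36.3% in Dynll1 also occur in another gene, against 0.0% in Dynll2. Over the whole transcript these shares are 9.1% and 0.0%. The effect of the shared stretches on the Dynll1 counts was not tested. In the stretch from coding base 26 to 85, where Dynll1 and Dynll2 differ most, the 15 differing bases are in capitals.
Dynll1: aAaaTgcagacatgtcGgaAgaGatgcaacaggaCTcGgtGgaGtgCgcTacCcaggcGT
Dynll2: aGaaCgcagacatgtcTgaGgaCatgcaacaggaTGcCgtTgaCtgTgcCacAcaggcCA
The Dynlt1 genes are near copies. Dynlt1a, Dynlt1c and Dynlt1f have the same 342 coding bases, and Dynlt1b differs from them by C21A alone, counted from the first base of the start codon and in capitals in the first 60 coding bases.
Dynlt1a: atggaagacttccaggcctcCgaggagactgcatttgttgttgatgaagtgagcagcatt
Dynlt1b: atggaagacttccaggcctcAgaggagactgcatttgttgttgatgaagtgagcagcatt

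Dynll1 (chr5:115297110-115300999, minus strand) is the shortest tested member, with a gene body of 3.9 kb. It had 42.5, 34.1, 39.9 and 41.9 CPM in UV input and 23.9, 26.5, 25.2 and 28.4 in UV IP. In fRIP input it had 57.2, 116.9, 71.1 and 63.5 CPM and in fRIP IP 25.6, 29.2, 32.3 and 31.0. Each IP library was below every input library, and the fRIP input of replicate 4 stood far above the other inputs. Dynll1 fell by 0.60 ± 0.06 in UV-RIP (edgeR adjusted p = 2.98e-24) and by 1.34 ± 0.12 in fRIP (edgeR adjusted p = 2.66e-09), and without replicate 4 its fRIP value was -1.11.

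Dynlrb1 (chr2:155236533-155250277, plus strand), a light chain of the roadblock type, had 23.4 to 27.5 CPM in UV input and 14.1 to 15.97 in UV IP, and 29.2 to 35.2 CPM in fRIP input and 16.9 to 18.1 in fRIP IP. The groups did not overlap in either crosslinker. It fell by 0.71 ± 0.07 in UV-RIP and by 0.88 ± 0.09 in fRIP (edgeR adjusted p = 3.63e-23 and 2.63e-08). Dynll1 and Dynlrb1 were the only members called depleted in both crosslinkers, though in UV-RIP neither was called under TMM scaling, with the library size taken without Gm26917 and Gm42418, under DESeq2 with median-of-ratios or with the trend on gene length removed, and Dynll1 also lost its call with the trend on GC content removed and without replicate 3.

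Dynll2 (chr11:87979525-87987533, minus strand) had 54.4 to 57.7 CPM in UV input and 46.2 to 48.4 in UV IP, and 88.4 to 102.4 CPM in fRIP input and 57.9 to 69.7 in fRIP IP. It fell by 0.26 ± 0.05 in UV-RIP and by 0.58 ± 0.08 in fRIP (edgeR adjusted p = 1.58e-06), just short of the fold of 1.5 that a call needs. Dynlt3, a light chain gene of the same family as the Dynlt1 copies with none of its transcript shared with other genes, had 1.495, 2.11, 1.88 and 2.72 CPM in fRIP input and 0.85, 1.36, 1.18 and 1.05 in fRIP IP. The groups did not overlap, and it fell by 0.87 ± 0.23 in fRIP (edgeR adjusted p = 0.00383). Without replicate 6 this call was lost, at -0.70 with an adjusted p of 0.0562, and DESeq2 on all 4 replicates did not make it, with an adjusted p of 0.0567 on total UMIs and 0.0752 with median-of-ratios.

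The Dynlt1 counts are uncertain for the reason that the sequences show. In the annotation every stretch of 34 bases, the read length, in the coding sequence of Dynlt1a, Dynlt1c and Dynlt1f also occurs in another gene, as do 95.7% of such stretches in the whole Dynlt1c transcript, 95.4% in Dynlt1f and 75.3% in Dynlt1a. Dynlt1b, 86.0% of whose stretches are shared, is also covered over its whole length by the noncoding gene Gm26848 on the same strand, and it is listed at 0. Reads were sequenced as pairs, so a pair can still be placed where only 1 of its ends is unique. Where in the gene body the reads of the others fell is not known from the counts. Dynlt1a had 3.90 to 5.69 CPM in fRIP input and 2.54 to 3.44 in fRIP IP and fell by 0.79 ± 0.16 (edgeR adjusted p = 0.00034). It overlaps Tmem181a on the opposite strand over 1975 bases, with a mean of 32.2 CPM for Tmem181a against 3.63 for Dynlt1a. The values of Dynlt1c and Dynlt1f in fRIP were 0.18 ± 0.21 and 0.18 ± 0.18, and neither passed the test. Of the 7 light chain genes tested 3 were lower in UV-RIP (29% of all genes) and 5 in fRIP (21.9% of all genes), and none was higher in either. The 3 of UV-RIP became 2 under TMM scaling, without Dynll2, and the 5 of fRIP were called lower under every scaling tried with edgeR.

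**Figure D2:**
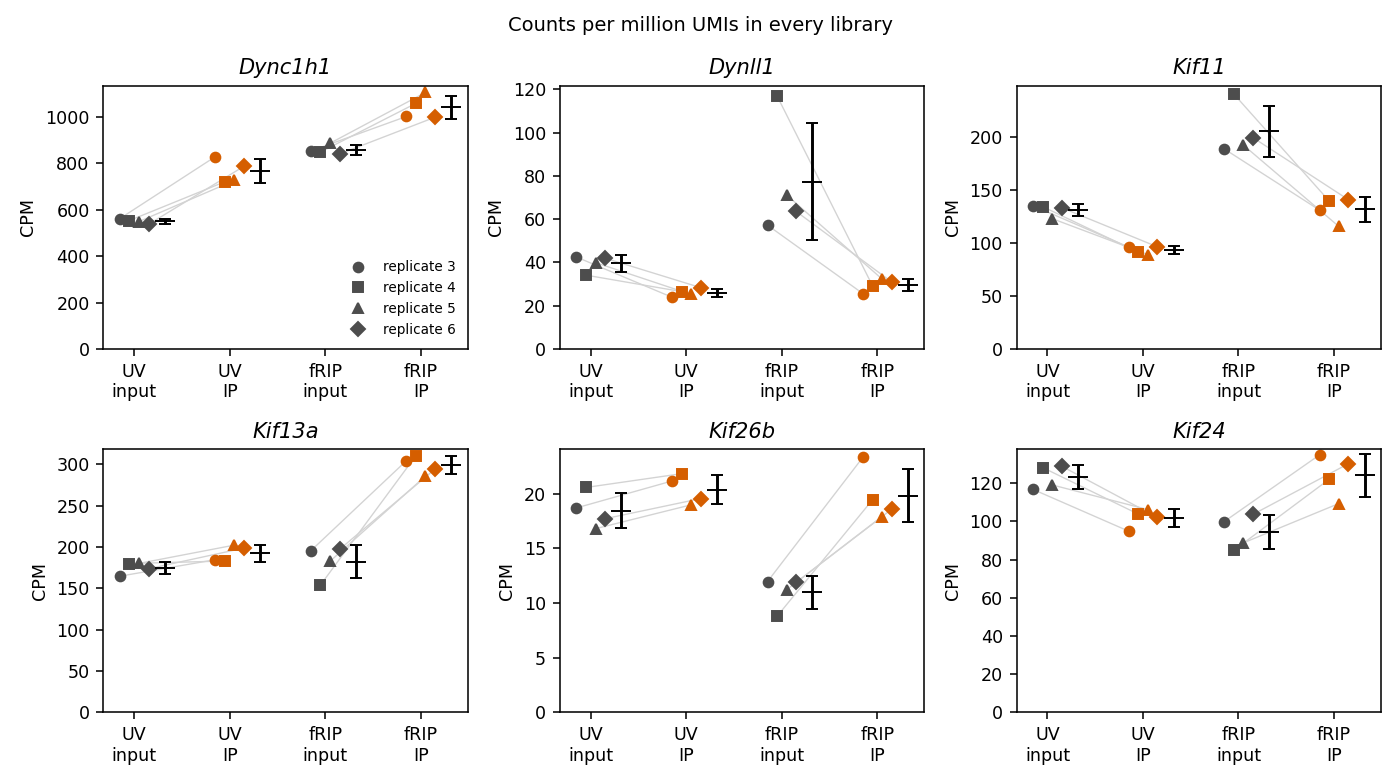
CPM in every library for 6 members, with a marker for each replicate number, grey for input and orange for IP, lines joining the IP and input of a lysate, and the mean with SD beside each group of 4. Dync1h1 rises and Dynll1 and Kif11 fall in both crosslinkers, Kif13a and Kif26b rise mostly in fRIP, and Kif24 falls in UV-RIP and rises in fRIP. The fRIP input of replicate 4 has the highest Dynll1 value, 116.9 CPM.

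Among the mitotic and chromosome kinesins 12 genes were tested. In UV-RIP 9 were lower and none higher, against 29% and 6.6% of all genes, with a median fold change of -0.30 against -0.17. In fRIP 10 were lower and none higher, against 21.9% and 17.6%, with a median of -0.32 against -0.03. Under TMM scaling 9 were lower in fRIP and none higher (20.1% and 19.7% of all genes in that fit). With the trend on GC content removed 7 were lower in fRIP and none higher (20.2% and 18.2%). In UV-RIP TMM scaling left 6 lower and brought 1 higher, Kif18b, against 14.8% and 16.2% of all genes in that fit. Removing the trend on GC content left 4 lower and 1 higher, Kif2a, with a median of -0.02, against 12.1% and 12.9% of all genes. On total UMIs the 8 genes Kif11, Kif15, Kif18a, Kif20b, Kif23, Kif2a, Kif2c and Kif4 were lower in both crosslinkers. With the trend on GC content removed Kif2a passed as higher in UV-RIP, at 0.16 (edgeR adjusted p = 0.00188), and its fRIP value was -0.05 (0.649). Neither Kif2a nor Kif2c passed in UV-RIP under TMM scaling (edgeR adjusted p = 0.0786 and 0.0566) or DESeq2 with median-of-ratios (0.192 and 0.19). The fRIP fall of Kif4 did not pass without replicate 3 or 6 (edgeR adjusted p = 0.062 and 0.105).

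Kif11, the motor that pushes the spindle poles apart, had 135, 135, 123 and 134 CPM in UV input and 96.4, 91.5, 89.3 and 96.6 in UV IP. In fRIP input it had 189, 241, 193 and 199.96 CPM, and in fRIP IP 131, 139.9, 116 and 141. No IP library reached an input library. Kif11 fell by 0.49 ± 0.04 in UV-RIP and by 0.64 ± 0.08 in fRIP (edgeR adjusted p = 5.63e-29 and 3.83e-07). With the trend on GC content removed its fRIP value was -0.45, short of the fold that a call needs.

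Kif20b (chr19:34922361-34975745, plus strand), a kinesin of the cleavage furrow and midbody, had 169 to 181 CPM in UV input and 125 to 157 in UV IP, and 195 to 219 CPM in fRIP input and 111 to 155 in fRIP IP. It fell by 0.32 ± 0.04 in UV-RIP and by 0.59 ± 0.08 in fRIP (edgeR adjusted p = 9.5e-14 and 1.18e-06). The fRIP value lies just past the fold of 1.5, and the call was lost without replicate 5, at -0.52, under TMM scaling, without Gm26917 and Gm42418, under DESeq2 with median-of-ratios, with the trend on GC content removed and without the replicate block. Kif20a, which brings cytokinesis factors to the central spindle, behaved differently in UV-RIP: it had 69.4 to 79.1 CPM in input and 63.2 to 73.6 in IP, the groups overlapped, and its value was -0.08 ± 0.05. In fRIP it fell from 153 to 225 CPM in input to 108 to 129 in IP, by 0.57 ± 0.08 (edgeR adjusted p = 2.7e-06). Part of its transcript lies opposite Cdc23, and 32.4% of its 34-base stretches also occur in another gene.

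Kif15 (chr9:122951046-123018733, plus strand), which backs up Kif11 in the spindle, had 190.0 to 192.6 CPM in UV input and 142 to 159 in UV IP. It fell by 0.35 ± 0.04 in UV-RIP. In fRIP it had 190.0 to 218 CPM in input and 147 to 192 in IP, with overlap, and fell by 0.21 ± 0.08 (edgeR adjusted p = 0.0262). The fRIP fall of Kif15 did not pass in 6 of the 13 alternatives, at adjusted p of 0.0501 to 0.721. Kif18a, which damps chromosome movements at the spindle equator, fell by 0.51 ± 0.05 in UV-RIP, with 69.8 to 75.5 CPM in IP against 100.3 to 107.8 in input, and by 0.38 ± 0.08 in fRIP. Removing the trend on GC content left Kif15 at -0.03 in UV-RIP and Kif18a at -0.07 and -0.10, none of which passed. The cytokinesis kinesin Kif14 fell by 0.16 ± 0.05 in UV-RIP, close to the shift over all genes, and under TMM scaling its value was 0.02. Its fRIP value was 0.04 ± 0.08. The chromosome arm kinesin Kif22 fell in fRIP by 0.28 ± 0.08, which became -0.19 and did not pass (adjusted p = 0.0606) once the trend on gene length was removed, and its UV-RIP value was -0.06 ± 0.05. Kif18b, which shortens astral microtubules, passed the test in neither, at -0.04 ± 0.05 and 0.09 ± 0.08. It is covered over its length on the opposite strand by the noncoding gene Gm26668, which had a mean of 8.03 CPM, and whether the counting used strand is not given in the sources used here.

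**Figure D3:**
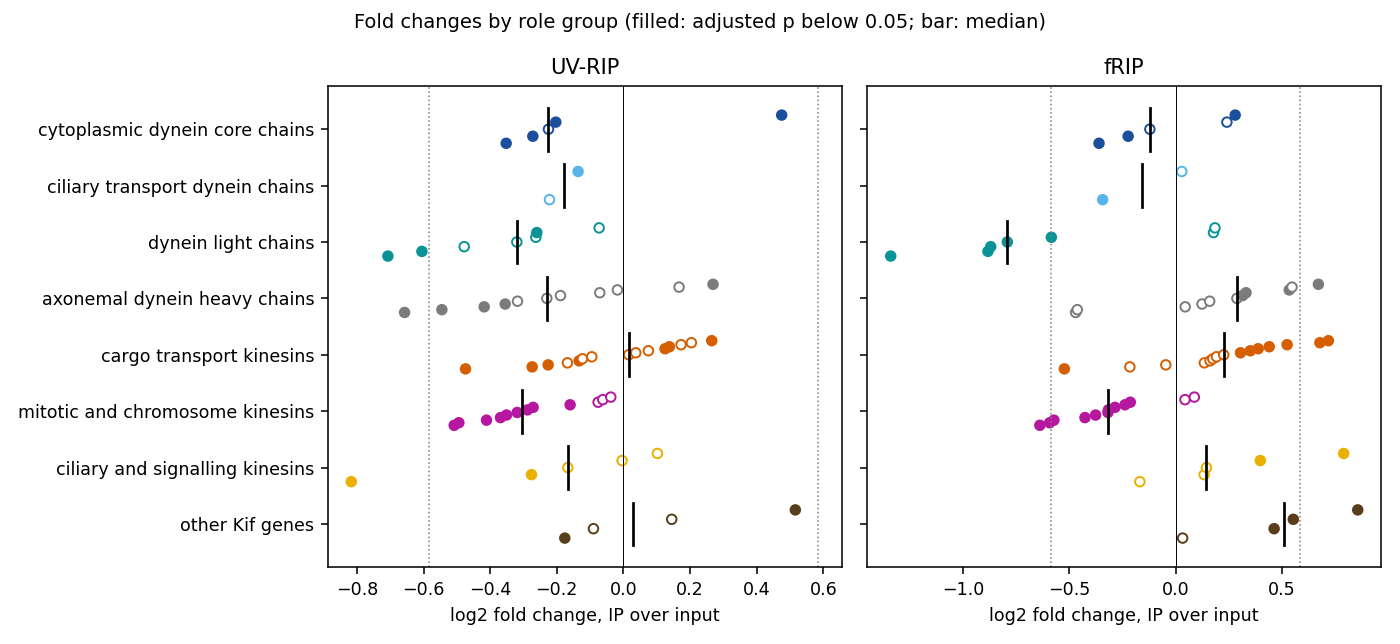
Log2 fold change of IP over input for the 61 members with a mean of 10 or more UMIs in UV-RIP (left) and fRIP (right), by role group; filled points had an adjusted p below 0.05, black bars are group medians and dotted lines mark a fold of 1.5. Most mitotic kinesins and dynein light chains lie left of 0 in both panels, and transport kinesins lie further right in fRIP than in UV-RIP.

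The 15 cargo transport kinesins gave 3 higher and 4 lower in UV-RIP (6.6% and 29% of all genes) and 7 higher and 1 lower in fRIP (17.6% and 21.9% of all genes), with medians of 0.02 and 0.23. Under TMM scaling these counts were 7 and 2 in UV-RIP (16.2% and 14.8% of all genes) and 9 and 1 in fRIP (19.7% and 20.1%). DESeq2 on total UMIs called 2 of the 4 lower in UV-RIP, without Kif1b and Kif21a. Once the trend on gene length was removed, 4 were higher and 3 lower in fRIP (15.3% and 20.5% of all genes), and the median fell to 0.09. Kif13a (chr13:46749087-46929867, minus strand), which moves endosomes toward the cell surface, had 165, 179.9, 180.0 and 174 CPM in UV input and 185, 183, 202 and 199 in UV IP. In fRIP input it had 195, 154, 183 and 197 CPM and in fRIP IP 304, 310.3, 286 and 294. Each IP library was above every input library in both crosslinkers. It rose by 0.14 ± 0.04 in UV-RIP (edgeR adjusted p = 0.00226) and by 0.72 ± 0.08 in fRIP (edgeR adjusted p = 1.2e-07). With the trend on gene length across all genes removed it was no longer enriched in fRIP, at 0.37.

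Its close relative Kif13b rose by 0.12 ± 0.04 in UV-RIP and by 0.39 ± 0.07 in fRIP, from 224 to 246 CPM in input to 289 to 318 in IP. The UV-RIP rises did not pass without replicate 6 for Kif13a (adjusted p = 0.0619) and without replicate 5 or 6 for Kif13b (0.0838 and 0.142), and the fRIP rise of Kif13b was 0.06 with the trend on gene length removed and did not pass. Kif1c, a kinesin that carries vesicles and RNA, rose by 0.27 ± 0.06 in UV-RIP and by 0.44 ± 0.09 in fRIP. Kif17, best known from dendrites and sensory cilia, was scarce, with 1.76, 1.20, 1.30 and 2.27 CPM in fRIP input and 2.03, 2.19, 3.11 and 3.10 in fRIP IP. The groups overlapped, and it rose by 0.68 ± 0.21 (edgeR adjusted p = 0.0108). Without replicate 5 this was lost, at 0.49 with an adjusted p of 0.121. DESeq2 did not call Kif17 either, with an adjusted p of 0.1 on total UMIs and 0.0938 with median-of-ratios, and with the trend on GC content removed the adjusted p in edgeR was 0.0516. In UV-RIP its value was 0.04 ± 0.21. The Sh2d5 gene, listed at 0, lies within Kif17 on the same strand.

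The conventional kinesin heavy chain genes did not move together. Kif5b, the member of that trio expressed in all cells, had 201 to 208 CPM in UV input and 157 to 178 in UV IP, and 242 to 301 CPM in fRIP input and 174 to 193 in fRIP IP. It fell by 0.27 ± 0.04 and by 0.52 ± 0.07 (edgeR adjusted p = 9.07e-11 and 2.9e-06). In UV-RIP the value of Kif5b turned to 0.09 (adjusted p = 0.0925) when the trend on GC content was removed. Kif5c, best known from neurons, rose in fRIP by 0.52 ± 0.09, from 28.1 to 35.8 CPM in input to 41.3 to 48.3 in IP, and its UV-RIP value was 0.08 ± 0.06. After removal of the trend on gene length the fRIP value of Kif5c was 0.20 (adjusted p = 0.078). Kif5a, also neuronal, passed the test in neither crosslinker, at -0.12 ± 0.06 and 0.19 ± 0.09. The summed neural markers stood at 45.4 to 51.6 CPM in UV input and 38.3 to 47.4 in UV IP, and at 32.7 to 36.8 in fRIP input and 30.5 to 36.4 in fRIP IP. In the inputs Map2 stood at 15.1 to 33.9 CPM, Nes at 12.9 to 18.8 and Pax6 at 1.1 to 3.5. Sox1 and Tubb3 were at 0 in every library, as was Sox2 itself. The part of the neural markers in these values was not tested. Of the kinesin-II motor subunits, Kif3a fell by 0.47 ± 0.07 in UV-RIP, and its fRIP value was -0.21 ± 0.09 (edgeR adjusted p = 0.0625). Kif3b rose by 0.35 ± 0.08 in fRIP, and its UV-RIP value was 0.02 ± 0.05. Kif3c passed in neither. Kif3c lies opposite 2 antisense genes, of which 1110002L01Rik had a mean of 61.9 CPM against 12.2 for Kif3c.

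Kif24 (chr4:41390745-41464887, minus strand), a centriolar kinesin that holds back the formation of cilia, was the only member past the adjusted p in opposite directions. It had 117, 128, 119 and 129 CPM in UV input and 94.9, 104, 106 and 102 in UV IP, and 99.9, 84.8, 88.7 and 104 CPM in fRIP input and 135, 122, 109 and 130.2 in fRIP IP. It fell by 0.28 ± 0.04 in UV-RIP (edgeR adjusted p = 1.11e-09) and rose by 0.40 ± 0.08 in fRIP (edgeR adjusted p = 0.000163), without overlap in either. Of all genes tested 2.71% showed this pattern. Kif24 was no longer lower in UV-RIP under TMM scaling, where its value was -0.10.

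Kif6 (chr17:49615136-49909847, plus strand), a kinesin of motile cilia, had 3.64, 3.66, 3.76 and 4.92 CPM in fRIP input and 6.15, 7.10, 6.88 and 7.41 in fRIP IP. It rose there by 0.79 ± 0.13 (edgeR adjusted p = 2.63e-05), or by 0.37 and without a call once the trend on gene length was removed. In UV-RIP its value was -0.17 ± 0.10. Kif27, a relative of the Hedgehog pathway kinesin Kif7, went down in UV-RIP from 2.17 to 2.48 CPM in input to 1.05 to 1.56 in IP. It fell by 0.82 ± 0.20 (edgeR adjusted p = 0.00022), the lowest value in UV-RIP among members with 10 or more UMIs, and DESeq2 with median-of-ratios did not call it, at -0.66 with an adjusted p of 0.137. Its fRIP value was -0.17 ± 0.20. Kif27 is overlapped on the opposite strand by the antisense gene Gm26555, which had a mean of 1.58 CPM against 1.99 for Kif27. Kif7 itself passed in neither, at 0.00 ± 0.07 and 0.13 ± 0.09.

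Kif26b and Kif26a encode atypical kinesins that do not walk on microtubules. Kif26b (chr1:178529125-178939200, plus strand) is the longest member at 410.1 kb and had 11.96, 8.79, 11.2 and 11.9 CPM in fRIP input against 23.4, 19.4, 17.9 and 18.6 in fRIP IP. It rose by 0.86 ± 0.10 (edgeR adjusted p = 4.37e-07), the highest value in fRIP, which became 0.39, short of the fold of 1.5, once the trend on gene length was removed. Its UV-RIP value was 0.15 ± 0.07. Kif26a rose by 0.52 ± 0.15 in UV-RIP (edgeR adjusted p = 0.00241) and by 0.55 ± 0.14 in fRIP (edgeR adjusted p = 0.00239). With 2.25, 3.36, 1.82 and 3.40 CPM in UV input and 3.80, 4.001, 3.47 and 4.22 in UV IP, it was below the fold of 1.5 on total UMIs and passed it under TMM scaling, at 0.69, and without replicate 4 or 6, while DESeq2 on total UMIs gave an adjusted p of 0.0918. Kif1bp, the kinesin binding protein gene, fell by 0.18 ± 0.07 in UV-RIP (edgeR adjusted p = 0.0304), close to the shift over all genes, and its value was 0.005 under TMM scaling. Nor did the fall of Kif1bp pass under DESeq2 on total UMIs (adjusted p = 0.198). In edgeR it did not pass without the replicate block or without replicate 3 or 4 (adjusted p = 0.0602, 0.183 and 0.111). Its fRIP value was 0.03 ± 0.09.

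The axonemal heavy chain genes are long, with a median gene body of 239.2 kb. Of 15 tested, 1 was higher and 4 lower in UV-RIP, near the 6.6% and 29% of all genes, and 4 were higher and none lower in fRIP, against 17.6% and 21.9%. The UV-RIP counts were 3 and 1 under TMM scaling (16.2% and 14.8% of all genes) and 1 and 2 under DESeq2 on total UMIs (3.88% and 20.6%). With the trend on GC content removed they were 3 and 0 (12.9% and 12.1%). The fRIP counts became 1 higher and 3 lower once the trend on gene length was removed (15.3% and 20.5% of all genes), and the median turned from 0.16 to -0.12. Markers of motile ciliated cells summed to 20.6 to 25.4 CPM in UV input and 16.7 to 19.8 in UV IP, and to 14.5 to 20.5 CPM in fRIP input and 17.2 to 19.6 in fRIP IP. Of these markers Foxj1, the master regulator of motile cilia, stood at 0.22 to 0.88 CPM in the inputs and Mcidas at 0 to 0.21. Tekt1 stood at 6.19 to 8.66 CPM there, Ccdc39 at 4.1 to 10.4, Rsph1 at 2.46 to 3.96 and Spag6l at 0.94 to 2.49. The part of these markers in the axonemal values was not tested.

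Dnah8, a heavy chain of the sperm tail, far exceeded the other axonemal genes, with 323, 318, 332 and 321 CPM in UV input and 327, 303, 321 and 327 in UV IP. These overlapped, and its value was -0.02 ± 0.04. In fRIP input it had 262, 207, 236 and 232 CPM and in fRIP IP 351, 368, 334 and 303, without overlap, and it rose by 0.53 ± 0.08 (edgeR adjusted p = 7.27e-06), which became 0.13 and did not pass once the trend on gene length was removed (edgeR adjusted p = 0.227). Several annotated genes lie on its opposite strand, among them Glo1 with a mean of 37.0 CPM. TMM scaling turned its UV-RIP value to 0.16, with an adjusted p of 9.04e-06.

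Dnah17 (chr11:118021723-118130634, minus strand), also of the sperm tail, had 10.1, 5.98, 8.90 and 10.1 CPM in fRIP input and 11.9, 13.5, 14.4 and 15.7 in fRIP IP. The groups did not overlap, and it rose by 0.67 ± 0.12 (edgeR adjusted p = 8.66e-05). The call rests in part on replicate 4, without which the value was 0.52, below the fold of 1.5. Dnah17 overlaps Pgs1 on the opposite strand over 2289 bases, with a mean of 196.7 CPM for Pgs1 against 12.6 for Dnah17. Dnah10 and Dnah2 rose in fRIP by 0.33 ± 0.10 and 0.32 ± 0.10, and Dnah10 also rose in UV-RIP, by 0.27 ± 0.07. Neither fRIP rise passed once the trend on gene length was removed, at 0.07 and 0.02, and Dnah10 did not pass without replicate 5 (adjusted p = 0.0796) nor Dnah2 without the replicate block (0.0599). Dnah12 (chr14:26693274-26891703, plus strand), a heavy chain of the inner arms of the axoneme, had 4.34, 4.24, 3.03 and 4.19 CPM in UV input and 2.88, 2.44, 2.13 and 2.55 in UV IP. The groups did not overlap. It fell by 0.66 ± 0.15 in UV-RIP (edgeR adjusted p = 7.25e-05), and its fRIP value was -0.46 ± 0.20 (edgeR adjusted p = 0.0669). The UV-RIP call of Dnah12 was lost under TMM scaling at -0.48, without Gm26917 and Gm42418 at -0.50, with the trend on gene length removed at -0.58, under DESeq2 with median-of-ratios at -0.48 and with the trend on GC content removed at -0.32, and in the last 2 of these it no longer passed the adjusted p either, at 0.152 and 0.125.

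Dnah7a and Dnah7b also fell in UV-RIP, by 0.36 ± 0.08 and 0.42 ± 0.11, though DESeq2 on total UMIs did not call Dnah7b, at an adjusted p of 0.0712, and neither passed under TMM scaling, under median-of-ratios or with the trend on GC content removed. Dnah1 had 1.48, 1.42, 0.85 and 1.04 CPM in UV IP and 1.77, 1.04, 2.04 and 2.03 in UV input, so the groups overlapped and replicate 4 went up. Its value of -0.54 ± 0.23 was near the threshold (edgeR adjusted p = 0.0439), and of 13 alternatives it passed only without replicate 4, with adjusted p of 0.0587 to 0.574 in the others. Dnah7a, Dnah7b and Dnah7c are near copies that share 53.4%, 60.7% and 61.0% of their 34-base stretches with other genes, so that their counts rest on the remainder.

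Whether a gene's IP to input ratio differed between the crosslinkers was tested as an interaction over the 16 libraries. In 15 members the ratio was higher in fRIP (22.7%, against 18.6% of all genes) and in 5 it was lower (7.58%, against 8.07%). Those higher in fRIP were the transport kinesins Kif13a, Kif13b, Kif16b, Kif21a, Kif3b, Kif5a and Kif5c, the axonemal genes Dnah17, Dnah2, Dnah7a and Dnah8, and Kif24, Kif26b, Kif28 and Kif6. The largest difference was that of Kif6, at 0.95 ± 0.16 (edgeR adjusted p = 7.7e-05), followed by Kif26b at 0.71 ± 0.12 and Kif24 at 0.67 ± 0.08. Those lower in fRIP were Dynll1, Dynll2, Kif20a, Kif20b and Kif5b. Dynll1 differed by -0.74 ± 0.15 (edgeR adjusted p = 0.0005) and Kif20a by -0.50 ± 0.10 (edgeR adjusted p = 0.000252). For Dync1h1 the difference was -0.20 ± 0.08 and did not pass (edgeR adjusted p = 0.0571). It did pass under DESeq2 on the same total UMIs (adjusted p = 0.0343), under every other scaling and with either trend removed, at adjusted p of 2.1e-05 to 0.00302, and without replicate 4 or 5 (0.000356 and 0.0448), so the call for Dync1h1 depended on the fit.

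This balance also moved with the scaling. TMM scaling took the median difference over all genes from 0.145 to 0.03 and the members' from 0.17 to 0.055, and it gave 8 members higher and 11 lower (13.4% and 12.3% of all genes in that fit), with Dync1h1 among the lower. Over all genes the higher share of the calls went from 69.7% to 52.1%. Every one of the 5 lower calls remained under the scalings tried, but Kif20b and Kif5b lost theirs without the replicate block and without replicate 3, 5 or 6, and Dynll2 also without replicate 3. Of the 15 higher calls 7 remained under TMM scaling as well as without Gm26917 and Gm42418: Dnah8, Kif13a, Kif16b, Kif24, Kif26b, Kif5c and Kif6.

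**Figure D4:**
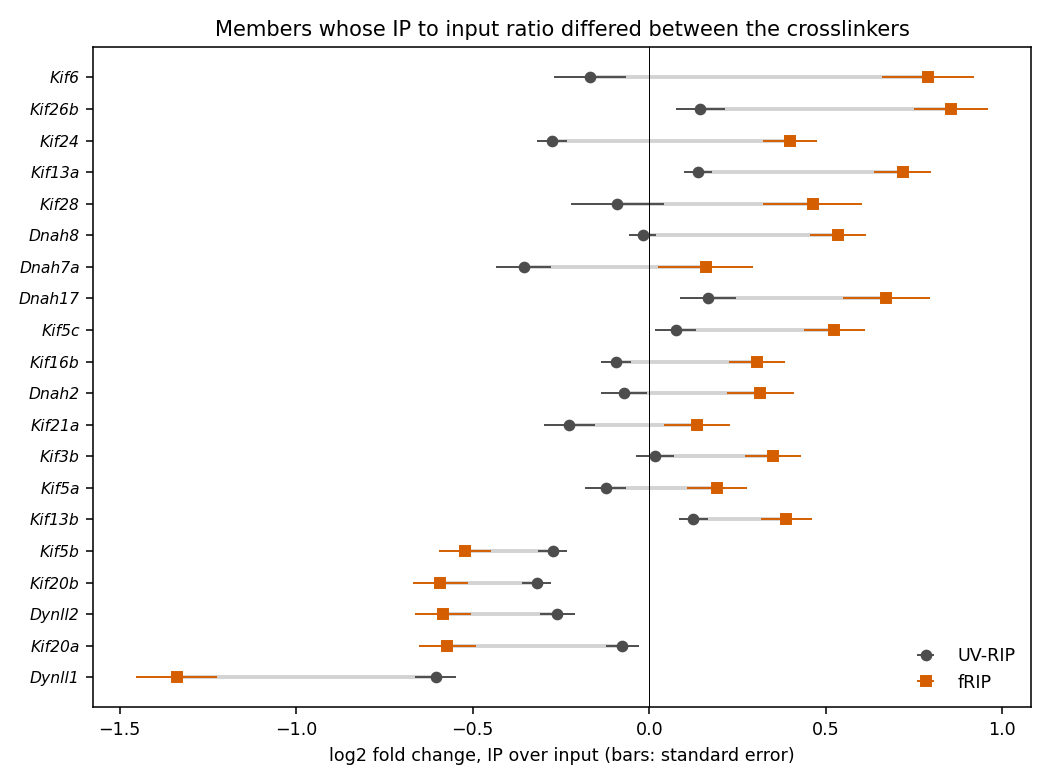
Log2 fold change of IP over input in UV-RIP (grey circles) and fRIP (orange squares), with standard errors, for the 20 members whose ratio differed between the crosslinkers at an adjusted p below 0.05. In the upper 15 the fRIP value lies to the right, by 0.95 for Kif6, and in the lower 5 it lies to the left, by 0.74 for Dynll1.

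Members higher and lower in fRIP also differed in gene span. The 17 that were higher had a median gene body of 109.2 kb and the 19 that were lower 30.9 kb, against 16.9 kb over all genes tested. Across the 61 members with a mean of 10 or more UMIs the rank correlation (Spearman) of the fRIP fold change with span was 0.48, and across all 15131 genes with that mean it was 0.46. Genes here share libraries and are not independent replicates, so these are descriptions. The median fRIP fold change was -0.57 over the 11 members up to 20 kb and 0.30 over the 21 members above 100 kb. All genes in these classes gave -0.29 and 0.37, and of all genes above 100 kb 29.8% were enriched, against 4 of the 21 members. When the trend on gene length across all genes was removed, no member passed as enriched in fRIP (0 at an unadjusted p in edgeR as well), 9 were depleted, and of the 15 members with a higher ratio in fRIP only Kif24 remained. In that fit 7.57% of all genes were enriched and 7.53% depleted. At the adjusted p alone, 9 members were still higher in it (15.3% of all genes), among them Kif26b, Kif13a and Kif6.

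In UV-RIP the corresponding rank correlation with span was 0.11, and that with the GC content of the longest transcript was 0.59, against 0.49 over all genes. In fRIP the rank correlation with GC content was also 0.49 among the members, against 0.25 over all genes, and the 17 higher members had a median GC content of 52.5% against 46.6% for the 19 lower ones. The 6 members higher in UV-RIP had a GC content of 52.5% to 61.7%, whereas the 27 lower ones had 38.2% to 57.4% with a median of 47.0%. Mitotic kinesin genes had a median GC content of 46.3% and the transport kinesin genes 51.6%. Dynlrb1 departs from this trend, at 57.4% GC and with the second lowest UV-RIP value among members with 10 or more UMIs. With the trend on GC content removed Dync1h1 still rose, by 0.54, and Dynlrb1 and Kif27 were still depleted, while Kif20b and Kif5b changed sign to 0.09 each without passing the test. Kif2a and Dync2h1, lower in UV-RIP on total UMIs, also changed sign there. They passed as higher, at 0.16 and 0.17 (edgeR adjusted p = 0.00188 and 0.00107).

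**Figure D5:**
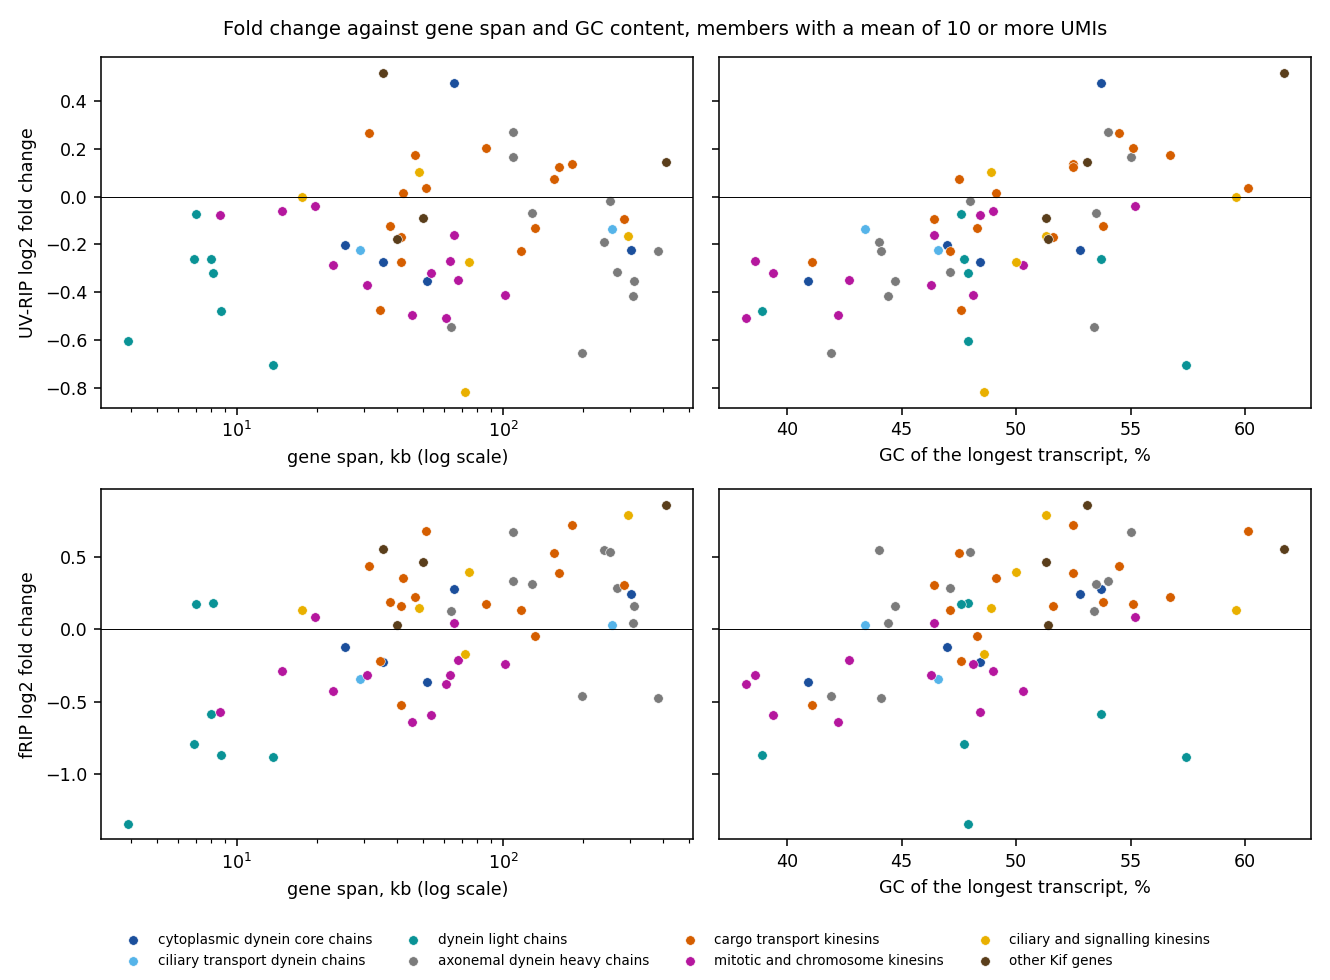
Log2 fold change of IP over input against gene span on a log axis (left) and GC content of the longest transcript (right), in UV-RIP (top) and fRIP (bottom), for the 61 members with a mean of 10 or more UMIs, coloured by role. In fRIP the points rise with span (rank correlation 0.48), from the short light chain genes at the lower left, and they rise with GC content in UV-RIP (0.59) and in fRIP (0.49).

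The partners of the motors were read in the same fits. In UV-RIP none of the 12 dynactin genes, 15 dynein adaptors and regulators, 10 kinesin partners and 13 tubulins tested was called enriched or depleted by edgeR. Of all genes tested 0.68% were called enriched and 5.53% depleted. An unadjusted p below 0.05 at that fold was reached by 0 of these 50 partner genes. Of all 22936 genes tested, 226 reached it upward and 1499 downward. DESeq2 on total UMIs called 0 of the 50, against 0.34% enriched and 3.85% depleted of all genes. At the adjusted p alone 2, 1, 1 and 0 were higher (6.6% of all genes) and 7, 7, 4 and 4 were lower (29% of all genes). In fRIP the dynactin gene Capzb, an actin capping protein subunit, was enriched, at 1.00 ± 0.08, and Actr10, Capza2 and Dctn3 were depleted, at -0.94 ± 0.10, -0.77 ± 0.08 and -0.66 ± 0.10. Dctn1, whose product binds the dynein intermediate chain, rose in UV-RIP by 0.29 ± 0.06, and its fRIP value was 0.21 ± 0.09. Among the adaptors and regulators Trak1, Bicdl1 and Rab11fip3 were enriched in fRIP, at 1.03 ± 0.09, 0.80 ± 0.09 and 0.72 ± 0.09, and Hook1 was depleted, at -0.71 ± 0.09. Pafah1b1, the Lis protein that activates dynein, fell by 0.50 ± 0.04 in UV-RIP and by 0.51 ± 0.08 in fRIP. Of the kinesin partners the light chain gene Klc1 and the motor gene Kifc3 were enriched in fRIP, at 0.93 ± 0.08 and 0.71 ± 0.10.

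Alpha and beta tubulins are the subunits of the microtubule track, and the list of tubulins also holds the gamma tubulins Tubg1 and Tubg2. These are short genes of 2.5 to 16.2 kb. In fRIP 10 of 13 were lower and 1, Tubg2, higher, against 21.9% and 17.6% of all genes. Tubg2 was called enriched, at 0.74 ± 0.20 on a mean of 1.8 CPM. Another 6 were depleted, against 10.7% of all genes. Of all genes up to 20 kb with a mean of 10 or more UMIs 27.3% were depleted. Among the 6 were Tubb5, the most abundant, at -0.84 ± 0.07, and Tuba1b at -0.89 ± 0.11. In 9 of the 13 tubulins the ratio was lower in fRIP than in UV-RIP and in 1 it was higher, against 8.07% and 18.6% of all genes. Many tubulin genes have close copies, so that their counts may be split.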

How the data were processed

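RNA from Sox2 IP and input was sequenced from 8 UV-RIP and 8 fRIP libraries. Per the labels, STAR was used with mm10; the authors dropped reads mapping to several places and deposited UMI counts, without normalization, over whole gene bodies of GENCODE vM16, so intronic reads are counted. Tool versions and the strand setting are not given in the sources used here. Counting over gene bodies gives long genes more intronic reads, and dropping reads with several places lowers near copies.

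The counts were analysed with edgeR 4.0.16 in R 4.3.3 by the quasi-likelihood test, separately per crosslinker, blocked on the replicate number and scaled to total UMIs. A gene was tested if any of the 16 libraries had 3 UMIs or more, which held for 22936 genes. The difference between crosslinkers was an interaction blocked on the plate. Alternatives were DESeq2 1.42.0, TMM, other filters, a correction for gene length and leaving out replicates. A correction for GC content, known for 22894 genes, was chosen after seeing the data. CPM is scaled to the UMIs of all genes.

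By the study's methods, 1 lysate gave the IP and the input of each number. Across genes, the deviations of IP and input of a number from their groups correlated at 0.029 to 0.441 in UV-RIP and at 0.114 to 0.601 in fRIP. Replicates differed by more than sampling noise, with chi-square per degree of freedom at 1.472 or above. The study's methods place the replicates on 8 separate culture plates of 1 cell line, so p-values measure the spread between plates of that line.

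The members and gene lists were chosen with earlier results of these data known. Genes named by rule were members called in UV-RIP, the called members furthest from 0 in fRIP (up to 8 each way), the 3 largest interactions each way, the most abundant member of each role in input, and the Dynll and Dynlt1 copies. Other members and partners were named after their values were seen.

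Coordinates are from GENCODE vM21 on GRCm38 for the 59 members whose versioned identifier matched. The other 11 matched by identifier alone. Coding sequences and transcripts are from vM21, and a shared stretch is 34 bases found in another gene's transcript on either strand. In tests on simulated data over 22061 genes, 200 of 200 changed genes were recovered in each crosslinker and 390 of 393 in the difference, with 0 false calls in UV-RIP, 1 in fRIP and 10 in the difference.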

Additional observations from a re-analysis of the deposited data

Results flagged for a closer look

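In 12 of 144 groups of 4 values for named members, 1 replicate stood apart from the others by Dixon's criterion, which chance meets in about 1 in 20 groups. Over all 61 members with a mean of 10 or more UMIs it was 33 of 366. In the log2 ratio of IP to input in fRIP, replicate 4 stood apart for Dynll1, at -1.98 against -1.15 to -1.02, and for Kif13a, at 1.01 against 0.58 to 0.64, and replicate 6 for Dynlt3, at -1.05 against -0.57 to -0.49. In UV-RIP the ratio of Dynlt1f was 0.69 in replicate 4 against -0.36 to -0.24. In UV input Dnah12 had 3.03 CPM in replicate 5 against 4.19 to 4.34, Dync2h1 110.9 CPM in replicate 4 against 98.4 to 99.6, and Kif11 123 CPM in replicate 5 against 134 to 135. In UV IP Dynlrb1 had 14.1 CPM in replicate 4 against 15.7 to 15.97, and Kif20a 63.2 CPM in replicate 5 against 72.9 to 73.6. In fRIP IP Dynlt1f had 2.14 CPM in replicate 4 against 2.73 to 2.77, and Kif15 147 CPM in replicate 5 against 189.8 to 191.6. In fRIP input Kif6 had 4.92 CPM in replicate 6 against 3.64 to 3.76.

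For 11 named members the fold change of IP over input differed between the crosslinkers by the interaction in edgeR. It was higher in fRIP for Kif6 by 0.95 (adjusted p = 7.7e-05), Kif26b by 0.71 (8.14e-05), Kif24 by 0.67 (1.17e-06), Kif13a by 0.58 (2.16e-05), Dnah8 by 0.55 (3.09e-05) and Dnah17 by 0.50 (0.0167). In fRIP it was lower, with differences of -0.74 for Dynll1 (adjusted p = 0.0005), -0.50 for Kif20a (0.000252), -0.32 for Dynll2 (0.00582), -0.27 for Kif20b (0.0316) and -0.25 for Kif5b (0.0195). With the trend on gene length removed, Kif24 was the only member still higher in fRIP, and all 5 of the lower ones remained.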

How the results depend on the processing

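Removal of a trend on GC content was chosen after seeing the data. In UV-RIP enriched members numbered 0, and 2 (Dync1h1 and Kif26a) under TMM scaling, with the library size without Gm26917 and Gm42418, under DESeq2 with median-of-ratios and with the gene-length trend removed. Depleted members numbered 4, and 1, 1, 0 and 1 in these fits and 2 with the GC trend removed. Of all genes 0.68% were enriched, and 2.2%, 1.83%, 1.26% and 1.88% in these fits. The depleted share of all genes was 5.53%, then 1.85%, 2.2%, 1.02% and 1.87%, and 1.58% with the GC trend removed. Without a fold threshold 6 and 27 were called. Leaving out a replicate gave 0 to 1 enriched (Kif26a, without replicate 4 or 6) and 3 to 5 depleted: Dynll1 was lost without replicate 3, and Dnah1 or Dynlt3 was gained without replicate 4 or 5. The median of the members was -0.20, and -0.015 under TMM, -0.042 without the 2 Gm genes, -0.013 under median-of-ratios, -0.07 with the length trend and -0.005 with the GC trend removed.

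In fRIP enriched members numbered 5 (8.8% of all genes), and 0 with the length trend removed (7.57%), where the median turned from 0.11 to -0.13. Depleted members numbered 6 (10.7% of all genes), and 9 with the length trend removed (7.53%). Without a fold threshold 17 and 19 were called. Leaving out a replicate gave 4 to 6 enriched and 6 to 7 depleted. DESeq2 on total UMIs called 4 and 5 (7.12% and 8.97% of all genes).

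For the difference 15 members were higher and 5 lower. The counts were 8 and 11 under TMM, 7 and 11 without the 2 Gm genes, 7 and 9 under median-of-ratios, 1 and 13 with the length trend and 7 and 10 with the GC trend removed, with medians of 0.055, 0.039, 0.026, -0.086 and 0.04 against 0.17. Leaving out a replicate gave 10 to 16 higher (13.7% to 17.7% of all genes) and 2 to 7 lower (5.73% to 8.4%). The lower ones were 2 without replicate 3 and 3 without replicate 6. With no replicate block 11 were higher and 3 lower (Kif20b and Kif5b lost), and in fRIP Kif20b lost its depleted call; the enriched and depleted calls in UV-RIP did not change without the block.

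Signs turned for named members in these fits. In UV-RIP, Kif6 gave 0.011 under TMM and 0.013 under median-of-ratios, Kif17 -0.025 with the GC trend removed and -0.112 to 0.206 without a replicate, and Kif20b and Kif5b 0.09 and 0.089 with the GC trend removed. Under TMM, without the Gm genes, under median-of-ratios, with the length trend and with the GC trend removed, Kif20a gave 0.105, 0.077, 0.097, 0.106 and 0.105, Dnah8 0.163, 0.136, 0.155, 0.053 and 0.173, and Dynlt1f 0.107, 0.079, 0.111, 0.116 and 0.127, with -0.339 to 0.056 without a replicate. Dync2h1 gave 0.045, 0.017 and 0.036 under the first 3 of these and 0.166 with the GC trend removed, and Kif1bp 0.005 under TMM. In fRIP, Kif27 gave -0.293 to 0.019 without a replicate, Dync2h1 -0.375 with the length trend removed and -0.022 to 0.077 without a replicate, and Kif1bp -0.035 with the length trend removed and -0.006 to 0.057 without a replicate. For the difference, Dnah12, Dync2h1 and Kif1bp gave -0.251, -0.308 and -0.012 with the length trend removed, and Kif15 -0.009 under median-of-ratios, -0.161 with the length trend and -0.012 with the GC trend removed. The causes were not tested. Over 24 named members 810 of 936 values kept direction and side of the threshold. Kif17, Kif27 and Dynlt3, near 2 CPM, have standard errors of 0.20 or more, which limits what their values show.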
